A study of Mus musculus with 6 samples.

Results

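The SOX transcription factors examined here are 10 genes, Sox2 of subgroup B, Sox4 and Sox11 of subgroup C, Sox5, Sox6 and Sox13 of subgroup D, Sox8, Sox9 and Sox10 of subgroup E and Sox17 of subgroup F. They were taken by symbol from tables of read counts for 24015 gene symbols. Counts came from 6 RNA-Seq libraries, made at postnatal day 14 from the sciatic nerve of mice, 3 of them from controls (Rnf40 fl/fl without Cre) and 3 from Rnf40 ΔSC animals (Dhh::Cre, Rnf40 fl/fl), and were compared to ask how expression differs once the ubiquitin ligase Rnf40 is deleted from Schwann cells. All animals were labelled as mixed 129SvJ/C57Bl/6J background, whereas the methods of the study name C3H in place of 129SvJ. Each library was made from a pool of 3 nerves, so that animals within a pool cannot be told apart. Dhh::Cre acts in the Schwann cell lineage, while RNA was taken from the whole nerve with its fibroblasts, perineurial, endothelial and immune cells. Gene counts added up to 1317167, 1992622 and 2468765 for control libraries 1, 2 and 3 and to 2184268, 1459387 and 2186710 in Rnf40 ΔSC libraries 1, 2 and 3. Of these, between 916 and 1787 reads per library fell on the 10 SOX genes.

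SOX proteins bind the minor groove of DNA through a high mobility group (HMG) domain and bend it, and members of a subgroup share much of their sequence and often their function. In Schwann cells, Sox10 is needed from the neural crest onwards, for specification, for survival and for each step of myelination, where it acts together with POU factors and with Egr2. Sox2 is a factor of immature Schwann cells that opposes myelination and is normally turned down as cells differentiate.

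In the GENCODE annotation of mm9, the predicted HMG domains of the 10 proteins, compared over 79 residues, were between 92.41% and 98.73% identical in the 7 pairs within a subgroup and between 45.57% and 70.89% identical in the 38 pairs across subgroups. A stretch of 9 residues in this domain was the same in all 10 proteins. The 27 coding bases behind it are shown for the members that rose in Rnf40 ΔSC nerves, as an example of sequence shared by the family. Capitals mark bases that differ from Sox2, 3 in Sox4, 5 in Sox5, 6 in Sox6 and 3 in Sox8, while Sox10 with 1 and Sox11 with 2 were closest to Sox2 and are not shown. The runs lie in coding exons, at chr3:34549470-34549496 on the plus strand (exon 1 of 2) for Sox2 and on the minus strand for the others, at chr13:29044684-29044710 (exon 1 of 1) for Sox4, chr6:143789767-143789793 (exon 13 of 15) for Sox5, chr7:122633250-122633276 (exon 14 of 16) for Sox6 and chr17:25707141-25707167 (exon 1 of 3) for Sox8.
Sox2: aggcccatgaacgccttcatggtatgg
Sox4: CggcccatgaacgccttTatggtGtgg
Sox5: CgTccAatgaaTgccttcatggtGtgg
Sox6: CgAccAatgaaTgcGttcatggtTtgg
Sox8: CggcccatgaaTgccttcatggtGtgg
Over the whole transcripts, 0% of windows of 50 bases and at most 0.657% of windows of 36 bases in any member (Sox11) occurred in another SOX gene, and Sox5, Sox6, Sox13, Sox8 and Sox17 shared 0 windows of either length, so that few reads of such a length could be shared between members.

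The targeted gene was looked at first. Rnf40 (chr7:134732212-134747119, plus strand, mm9) had 130, 126 and 142 normalized counts in control libraries 1, 2 and 3 and 90.2, 90.4 and 94.2 in Rnf40 ΔSC libraries 1, 2 and 3. Normalized counts are counts brought to one library size by TMM, a method that sets libraries equal over the bulk of their genes. All Rnf40 ΔSC libraries were below all controls, in the direction of their labels. Only exons 3 and 4 are floxed and other cells of the nerve keep the gene, so that reads can remain. The log2 fold change was -0.54 (SE 0.14, adjusted p = 0.00243 in edgeR's quasi-likelihood test, adjusted by Benjamini-Hochberg over all 11371 genes tested), and with library totals as the scale it was -0.27 (adjusted p = 0.116, range over alternatives 0.00238 to 0.116). Rnf20, the partner of Rnf40 in the ligase, had 127, 128 and 112 normalized counts in control libraries and 176, 185 and 137 in Rnf40 ΔSC ones. Its log2 fold change of 0.44 (SE 0.13, edgeR adjusted p = 0.00997) did not pass without control library 3 (adjusted p = 0.0869) or without Rnf40 ΔSC library 1 (adjusted p = 0.0569). The Schwann cell marker S100b was abundant in every library, with 791, 912 and 863 normalized counts in controls against 498, 491 and 401 after deletion. It was thus lower in all Rnf40 ΔSC libraries, with a log2 fold change of -0.89 (SE 0.10, edgeR adjusted p = 3.05e-09) and of -0.62 with library totals.

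Of the 10 SOX genes, 9 had enough reads for a test and Sox11 had not. Sox2, Sox4, Sox5, Sox6 and Sox8 rose and Sox10 fell in Rnf40 ΔSC nerves, whereas Sox13, Sox9 and Sox17 did not pass an adjusted p of 0.05. The same 5 genes were higher and the same 1 lower with library totals as the scale. Among all 11371 genes tested, 31.6% passed this threshold, 15.5% as higher and 16.2% as lower. Groups did not overlap for 5 of the 10 members, 4 of them higher and 1 lower, against 43.5% of all genes tested, 22% as higher and 21.6% as lower, so that the count of members apart is near that of genes in general. Tested with library totals, which moved the median log2 fold change of all genes by 0.27, the share of lower genes among those that passed went from 51.2% to 19.2%, so that directions given here are relative to the bulk of genes. With additional minima of 0.8 for the absolute log2 fold change and of 20 for the mean normalized count, which 8.78% of all genes tested met, Sox2, Sox5 and Sox6 stayed as higher and, in edgeR, 0 members as lower, since Sox10 with -0.79 fell just short of the minimum.

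**Figure D1:**
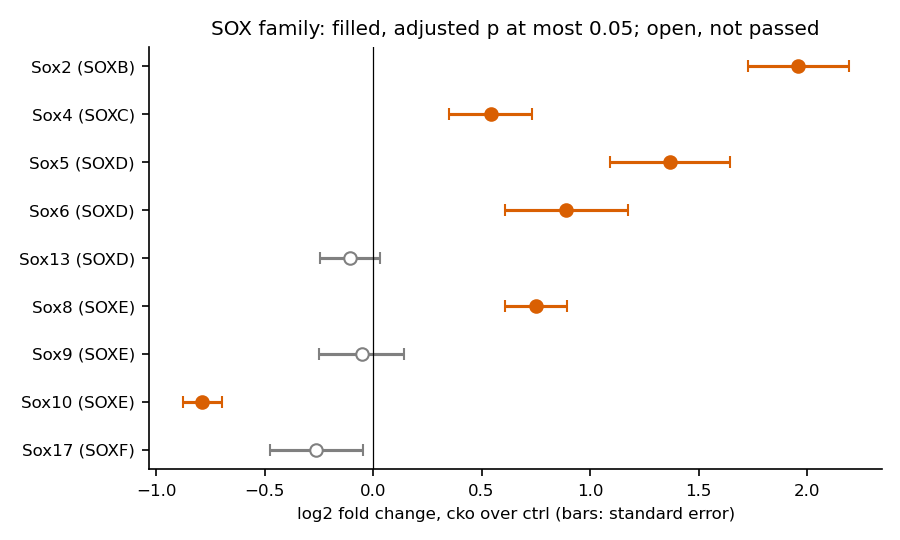
Log2 fold changes of the 9 SOX genes tested, Rnf40 ΔSC (cko) over control (ctrl), with standard errors from edgeR (n = 3 libraries each). Filled symbols passed an adjusted p of 0.05, with 5 genes to the right of 0 and Sox10 to the left, also with library totals as the scale, whereas Sox13, Sox9 and Sox17 (open) changed sign with that scale.

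Subgroup E holds the SOX gene with the highest level in the nerve. Sox10 (chr15:78985343-78994920, minus strand) had 958, 1055 and 1084 normalized counts in control libraries 1, 2 and 3 and 629, 574 and 592 in Rnf40 ΔSC libraries 1, 2 and 3. Control libraries were all high and Rnf40 ΔSC libraries all low, with no overlap. The means were 1032 ± 66.0 (SD, n = 3) and 598 ± 28.2 (SD, n = 3), a 1.72-fold lower level in Rnf40 ΔSC nerves. The log2 fold change was -0.79 (SE 0.09, edgeR adjusted p = 8.87e-09), and -0.52 with library totals. In RNA from whole nerve, fewer cells of a type and less RNA per cell cannot be told apart.

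Sox8, a close relative that is co-expressed with Sox10 in many neural crest derivatives (chr17:25702837-25707631, minus strand), had 105, 74.1 and 88.7 normalized counts in control libraries and 139, 157 and 151 in Rnf40 ΔSC ones. It was thus opposite to Sox10, with all Rnf40 ΔSC libraries above all controls. The level was 1.67-fold higher and the log2 fold change 0.75 (SE 0.14, edgeR adjusted p = 7.85e-05). Sox9, the third gene of the subgroup and the key regulator of cartilage formation (chr11:112643538-112649074, plus strand), had 73.0, 62.1 and 74.9 normalized counts in control libraries and 82.8, 77.2 and 44.7 in Rnf40 ΔSC ones. Rnf40 ΔSC libraries 1 and 2 were above all controls and library 3 below all of them, so that the groups overlapped. Its log2 fold change of -0.05 (SE 0.20, 95% interval -0.45 to 0.34, edgeR adjusted p = 0.864) was 0.21 without Rnf40 ΔSC library 3, 0.01 without control library 3 and 0.21 with library totals.

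As shares within a library need no scaling between libraries, the makeup of subgroup E was also compared per kb of exon. Sox10 made up 87.3%, 90.9% and 89.6% of the subgroup in control libraries 1, 2 and 3 and 78.2%, 75.4% and 78.7% in Rnf40 ΔSC libraries 1, 2 and 3. All Rnf40 ΔSC libraries lay below all controls, with a mean of 77.4% ± 1.76 (SD, n = 3) against 89.3% ± 1.83 (SD, n = 3). The difference of -11.8 percentage points had p = 0.10 in a two-sided exact permutation test, the smallest value that 3 against 3 libraries allow. Sox8 took 8.32%, 5.56% and 6.38% in control libraries and 15.04%, 17.9% and 17.4% in Rnf40 ΔSC ones (exact p = 0.10). Sox9 took 3.98% ± 0.43 (SD, n = 3) of the control subgroup and 5.77% ± 1.62 (SD, n = 3) after deletion, with overlap of the groups (exact permutation p = 0.30). Counted as plain reads, Sox10 had 603 of 715 reads of the subgroup in control library 1, the smallest control library (84.3%, 95% Wilson interval 81.5% to 86.8%), and 476 of 670 in Rnf40 ΔSC library 2, the smallest of its group (71.0%, interval 67.5% to 74.4%). Such intervals cover counting error only.

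**Figure D2:**
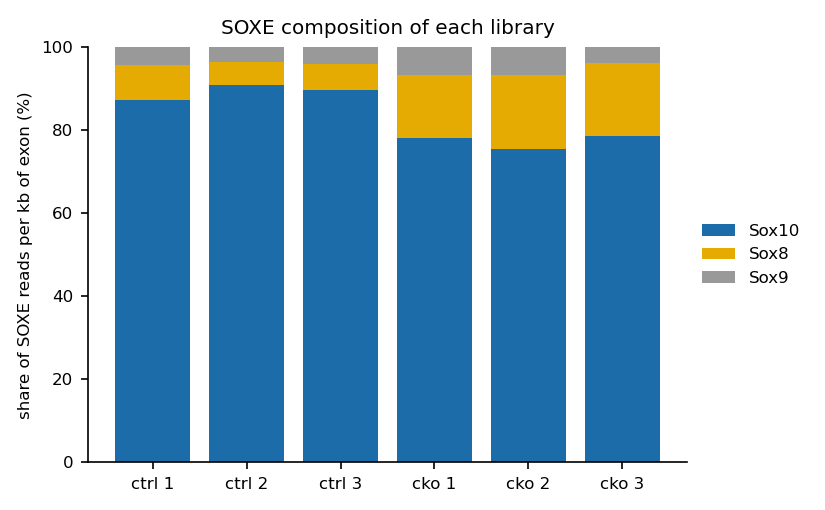
Share of Sox10, Sox8 and Sox9 in the summed reads per kb of exon of the 3 genes (%, stacked to 100), for control (ctrl) and Rnf40 ΔSC (cko) libraries. Sox10 took between 87.3% and 90.9% in control and between 75.4% and 78.7% in Rnf40 ΔSC libraries, and Sox8 took the larger part of the difference.

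Subgroup B gave the largest rise among the members. Sox2 (chr3:34548927-34551383, plus strand) had 27, 15.25 and 23.2 normalized counts in control libraries 1, 2 and 3 and 64.6, 104.9 and 85.4 in Rnf40 ΔSC libraries 1, 2 and 3, from 14 to 27 and from 78 to 107 reads. Every Rnf40 ΔSC library was far above every control. The means of 21.8 ± 6.00 (SD, n = 3) and 84.9 ± 20.2 (SD, n = 3) differed 3.89-fold. The log2 fold change was 1.96 (SE 0.23, edgeR adjusted p = 1.55e-08).

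Sox2 lies within the span of the long noncoding gene Sox2ot (chr3:34003360-34581541, plus strand), on the same strand and with 0 exonic bases in common in the annotation used. Sox2ot had 121, 155 and 155 normalized counts in control libraries and 86.9, 94.0 and 79 in Rnf40 ΔSC ones. It was lower in all Rnf40 ΔSC libraries, the opposite of Sox2, with a log2 fold change of -0.75 (SE 0.14, edgeR adjusted p = 7.96e-05) and of -0.48 with library totals. Unspliced Sox2ot RNA would add to Sox2 counts and cannot be separated from them.

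Sox1 and Sox3, the other genes of subgroup B1 that act with Sox2 in neural progenitors, are not among the 10 members and had too few reads for the test. Sox3 had 0, 0 and 2 reads in control libraries and 7, 4 and 14 reads in Rnf40 ΔSC libraries. Sox1 had 0 reads in all control libraries and 2, 1 and 7 reads in Rnf40 ΔSC libraries. For both genes, reads were thus found almost only in Rnf40 ΔSC libraries. The pooled ratio for Sox3, corrected for library size, was 10.3 (95% exact counting interval 2.57 to 89.7), and Sox1 was at least 2.74-fold higher against a floor of 3 reads over the control group. Both values rest in part on Rnf40 ΔSC library 3, which holds 7 of the 10 Sox1 reads. Without it, an alternative chosen after seeing the data, the limit for Sox1 was 1.33-fold and the ratio for Sox3 7.31 (interval 1.596 to 67.9). Without the filter on low counts, the edgeR adjusted p was 0.00305 for Sox3 and 0.0316 for Sox1, and neither passed once library 3 was also left out (adjusted p = 0.0646 and 0.267).

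The Sox2 promoter, as the promoter of the member with the largest rise, is shown with the SOX core motif in capitals. It covers the 250 bases before the start of the RefSeq gene (GRCm38.p6, chr3:34649745-34649994, plus strand), with ACAAAG 206 bases before the start.
Sox2: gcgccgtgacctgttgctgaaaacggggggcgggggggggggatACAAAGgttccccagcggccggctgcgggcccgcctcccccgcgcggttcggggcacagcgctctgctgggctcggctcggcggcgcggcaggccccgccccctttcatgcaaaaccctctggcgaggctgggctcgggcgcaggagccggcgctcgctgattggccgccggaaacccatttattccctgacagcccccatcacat
RefSeq entries were matched for 7 members with 12 promoters between them. ACAAAG, searched on both strands, was found in 6 of these 12, 1 of Sox2 and 5 of Sox6, and in 16.5% of 32851 promoters of the same length. The SOX core variant ACAAT was found in 4 of the 12, 1 of Sox5 and 3 of Sox6, and in 27.7% of all promoters, and the EGR motif GCGNGGGCG in 0 of the 12 and in 4.70% of all promoters. Sox6 alone has 6 of the 12 promoters, so that these counts rest mainly on 1 gene. These matches are descriptions of sequence and no measure of binding.

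Subgroup D members lack a transactivation domain and modulate other SOX factors, in cartilage as partners of Sox9 and in glia as antagonists of Sox10. Sox5 (chr6:143776945-144730497, minus strand) had 12.7, 13.1 and 16.4 normalized counts in control libraries 1, 2 and 3 and 37.3, 38.6 and 35.9 in Rnf40 ΔSC libraries 1, 2 and 3. The libraries of each group lay close together and the groups were well apart. The level was 2.65-fold higher in Rnf40 ΔSC nerves, and the log2 fold change was 1.37 (SE 0.28, edgeR adjusted p = 0.000183).

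Sox6 (chr7:122614858-123182258, minus strand) had 25.4, 17.4 and 18.9 normalized counts in control libraries and 29.0, 55.5 and 31.1 in Rnf40 ΔSC ones. The groups did not overlap, but Rnf40 ΔSC library 2 stood far above the others and library 1 only little above the highest control. The log2 fold change was 0.89 (SE 0.28, edgeR adjusted p = 0.0143). It was 0.58 (edgeR adjusted p = 0.164) without Rnf40 ΔSC library 2, and the call was also lost without control library 2 (adjusted p = 0.0786) or 3 (adjusted p = 0.0791) and in DESeq2 (adjusted p = 0.0619), with a range over alternatives from 0.00138 to 0.164. Sox13 (chr1:135278880-135320954, minus strand) had between 115.5 and 129 normalized counts in control and between 101 and 133 in Rnf40 ΔSC libraries. Its groups overlapped, with a log2 fold change of -0.11 (SE 0.14, 95% interval -0.39 to 0.18, edgeR adjusted p = 0.600), which was 0.16 with library totals.

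**Figure D3:**
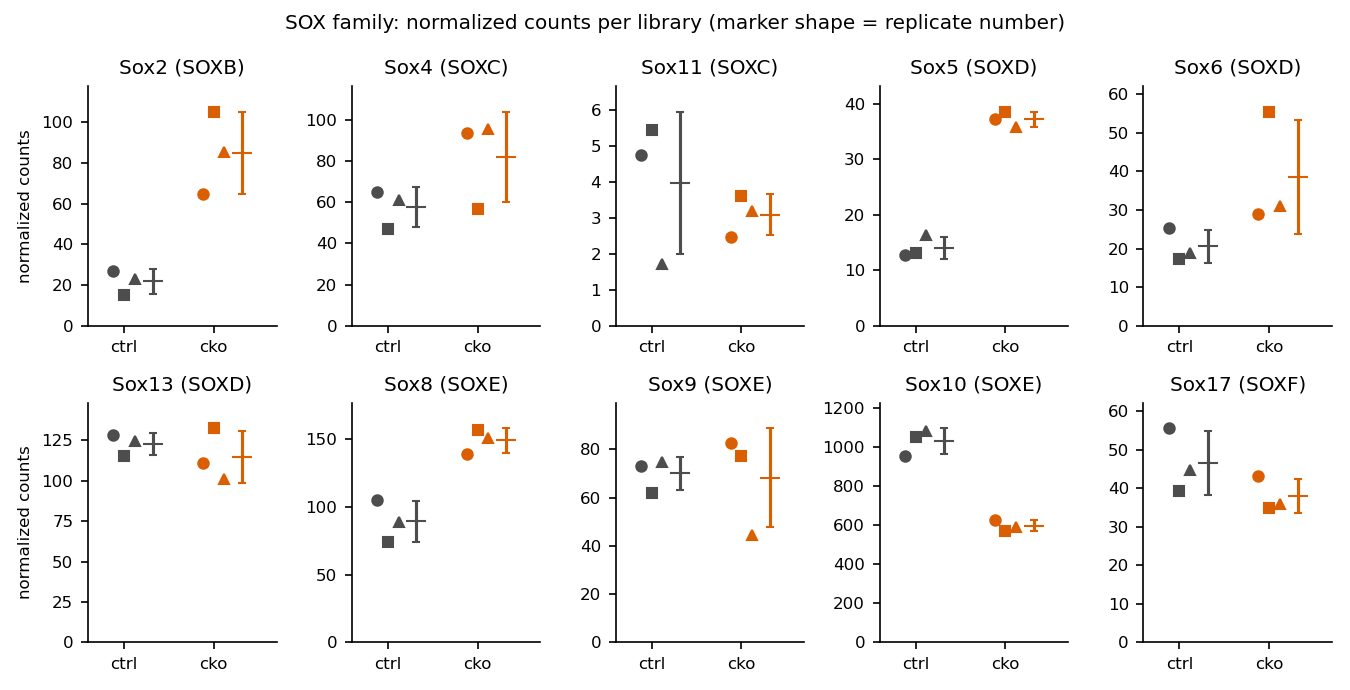
Normalized counts of the 10 SOX genes in each control (ctrl) and Rnf40 ΔSC (cko) library, each axis from 0. Symbols are libraries and their shapes replicate numbers, and bars beside them give the mean and SD of 3 libraries. Groups were apart for Sox2, Sox5, Sox6, Sox8 and Sox10, and for 43.5% of all genes tested.

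Subgroup C genes are linked to progenitors and to differentiating neurons, and Sox4 delays myelination when it persists in Schwann cells. Sox4 (chr13:29040788-29045582, minus strand) had 65.1, 46.9 and 61.1 normalized counts in control libraries and 93.6, 56.7 and 95.8 in Rnf40 ΔSC ones. Rnf40 ΔSC libraries 1 and 3 were above all controls, while library 2 lay among them. The log2 fold change was 0.54 (SE 0.19, edgeR adjusted p = 0.0270). The call depended on single libraries, with an edgeR adjusted p of 0.176 without control library 2, 0.0671 without control library 3, 0.132 without Rnf40 ΔSC library 1 and 0.0901 without Rnf40 ΔSC library 3, and it was not made by DESeq2 (adjusted p = 0.111). Over all alternatives the adjusted p ran from 0.000973 to 0.176. Sox11 (chr12:28025562-28027574, minus strand) had 3, 5 and 2 reads in control libraries and 3, 3 and 4 in Rnf40 ΔSC ones, and a difference was not detectable at this depth. Sox12, the remaining gene of the subgroup, had between 155 and 180 normalized counts in control and between 115 and 158 in Rnf40 ΔSC libraries. Its log2 fold change was -0.26 (SE 0.13, edgeR adjusted p = 0.130) and 0.01 with library totals.

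Subgroup F is best known from endothelial cells, where Sox7, Sox17 and Sox18 act in blood vessel formation. Sox17 (chr1:4481009-4486494, minus strand) had 55.6, 39.2 and 44.8 normalized counts in control libraries and 43.0, 34.96 and 35.9 in Rnf40 ΔSC ones. The groups overlapped, and the log2 fold change of -0.26 (SE 0.22, 95% interval -0.70 to 0.18, edgeR adjusted p = 0.384) was 0.00304 with library totals. Sox7, which is not among the 10 members, had 27, 43.6 and 29.3 normalized counts in control libraries and 10.8, 13.3 and 16.8 in Rnf40 ΔSC ones. All Rnf40 ΔSC libraries were below all controls, with a log2 fold change of -1.29 (SE 0.30, edgeR adjusted p = 0.00102) and of -1.02 with library totals. Sox18 had 22.2, 28.3 and 28.4 against 14.9, 22.9 and 23.9 normalized counts, a log2 fold change of -0.39 (SE 0.29) that did not pass (edgeR adjusted p = 0.329). Of 10 SOX genes outside the members, 3 had enough reads for a test, and 0 rose and 1 fell, with a median log2 fold change of -0.39 against -0.00245 over all genes. Sry, Sox14 and Sox21 had 0 reads in all libraries, and Sox15 and Sox30 had at most 2.

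Markers of endothelial cells were lower beside Sox7. Of 13 endothelial markers, 8 fell and 0 rose, with a median log2 fold change of -0.58, and summed to 2490, 2242 and 2418 normalized counts in control and to 1588, 1506 and 1837 in Rnf40 ΔSC libraries. With library totals, 3 fell. Cd34 was the most abundant, followed by Cdh5 and Pecam1, and none of the 13 was near 0. The largest falls were those of the tight junction protein Cldn5, with a log2 fold change of -1.12 (SE 0.28, edgeR adjusted p = 0.00181), and of the TGF-beta coreceptor Eng, with -0.74 (SE 0.16, edgeR adjusted p = 0.00107). The part of endothelial cells in the lower Sox7 was not tested.

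Levels were then compared between the 10 members, as normalized counts per kb of exon. Sox12, which is not among them, had 40.6 ± 3.12 (SD, n = 3) in control nerves, above all members but Sox10. In control nerves, Sox10 led with 380 ± 24.3 (SD, n = 3), followed by Sox8 with 28.6 ± 4.93 and Sox13 with 28.5 ± 1.57, which did not differ beyond their spread. Sox9 with 16.9, Sox17 with 14.7, Sox4 with 12.03 and Sox2 with 8.88 came next, each overlapping with its neighbour in this order. Sox6 with 2.33, Sox11 with 1.98 and Sox5 with 0.98 were lowest and also overlapped from neighbour to neighbour. In Rnf40 ΔSC nerves, Sox10 still led with 221 ± 10.4 (SD, n = 3) and was apart from Sox8 with 47.7 ± 2.88. Sox2 with 34.6 ± 8.20 stood at place 3 instead of place 7, where it overlapped with Sox13 at 26.7 ± 3.72. Sox10 provided 76.8% ± 3.28 (SD, n = 3) of the summed level per kb of the 10 genes in control nerves and 57.5% ± 2.62 (SD, n = 3) after deletion, while the share of Sox2 was 1.80% ± 0.50 and 9.02% ± 2.14. The summed level without Sox10 was 129, 99.6 and 116 in control libraries and 157, 176 and 156 in Rnf40 ΔSC ones, so that all Rnf40 ΔSC libraries were above all controls.

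Reads of each member were also set against the Sox10 reads of the same library. For 100 Sox10 reads, control libraries 1, 2 and 3 held 2.82, 1.45 and 2.15 Sox2 reads and Rnf40 ΔSC libraries 1, 2 and 3 held 10.3, 18.3 and 14.4. The mean log2 ratio of Sox2 to Sox10 was -5.56 in controls and -2.84 after deletion, a 6.62-fold difference. For 100 Sox10 reads, there were 1.33, 1.24 and 1.51 Sox5 reads in control libraries and 5.92, 6.72 and 6.07 in Rnf40 ΔSC ones. The ratio of Sox5 to Sox10 was thus 4.46-fold higher. Corresponding folds were 3.08 for Sox6, 2.89 for Sox8, 2.40 for Sox4, 1.601 for Sox13 and 1.42 for Sox17, and for all of these genes, Sox2 and Sox5 included, all libraries of the Rnf40 ΔSC group were above all controls. Sox9 with 1.62-fold and Sox11 with 1.46-fold had overlapping groups. In a two-sided exact permutation test, p was 0.10 for the 7 ratios without overlap, the smallest value possible, 0.20 for Sox9 and 0.40 for Sox11, all unadjusted for the 9 ratios computed. As all ratios share the Sox10 reads as denominator, a lower Sox10 raises all of them. A gene with unchanged normalized counts would show 1.72-fold, the median over all other genes tested was 1.71-fold, and 71.4% of 11370 genes had ratios apart and higher. The 7 of 9 is thus near what genes in general show, and Sox13, Sox9, Sox11 and Sox17 lie below the fold of an unchanged gene.

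**Figure D4:**
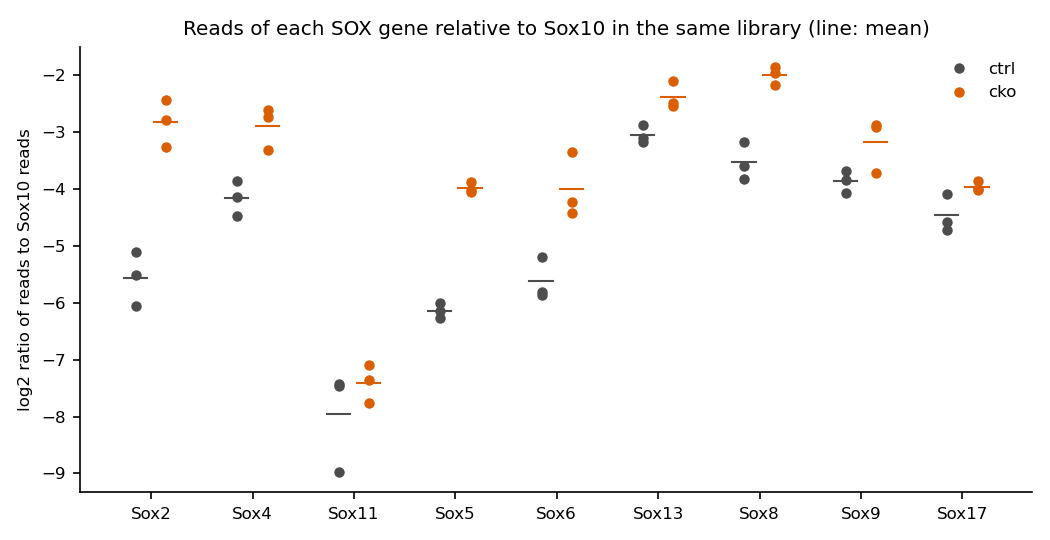
Log2 ratio of the reads of each SOX gene to the Sox10 reads of the same library (0.5 added to both) for 3 control (ctrl) and 3 Rnf40 ΔSC (cko) libraries, with lines at the means. Ratios in Rnf40 ΔSC libraries were above those of all controls except for Sox11 and Sox9, as they were for 71.4% of all other genes tested.

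Genes with enough reads for the test in 1 genotype only are left out of the counts and medians of the lists. This choice was made after seeing the data, and it means 0 libraries of the other genotype past the filter. Mycn, Col2a1, Col11a2 and Birc5, with 2 of 3 control libraries past it, and Aurkb, with 1, stayed in. All 3 of their Rnf40 ΔSC libraries were past it, so that their lists are still shaped in part by the change itself. All 9 tested members had enough in all libraries. Among 12 partners and cofactors of Sox10 in Schwann cells, 4 rose, 3 fell and 5 did not pass, with a median log2 fold change of 0.12. The POU factor Pou3f1 (Oct6), which marks the promyelinating stage, had 414.5, 393 and 330 normalized counts in control libraries and 1392, 1900 and 1394 in Rnf40 ΔSC ones. Pou3f2 (Brn2), with an overlapping role, had 77.8, 89.3 and 71.4 against 266, 312 and 264. For both genes the groups were far apart, with log2 fold changes of 2.05 (SE 0.12, edgeR adjusted p = 1e-11) for Pou3f1 and 1.82 (SE 0.13, edgeR adjusted p = 2.61e-14) for Pou3f2. Egr2, the activator of the myelination program, had 473, 515 and 437 normalized counts in control libraries and 594.5, 527 and 705 in Rnf40 ΔSC ones. All Rnf40 ΔSC libraries were above all controls, but by a small margin for library 2. The log2 fold change of Egr2 was 0.36 (SE 0.10, edgeR adjusted p = 0.00577) and did not pass without control library 3 (adjusted p = 0.0873). Zeb2, a repressor of inhibitors of myelination, was the most abundant gene of the list by its mean over both genotypes. In Rnf40 ΔSC libraries it had 942, 1005 and 887 normalized counts, each below Pou3f1. Zeb2 fell by 0.33 on the log2 scale (edgeR adjusted p = 0.00298), to -0.06 and an adjusted p of 0.579 with library totals, where 0 genes of the list fell.

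Of 13 tested genes that Sox10 is known to activate in Schwann cells, 9 fell, 2 rose and 2 did not pass, with a median log2 fold change of -0.89. Pmp22, a structural protein of compact myelin, had 85430, 95350 and 91120 normalized counts in control libraries against 21920, 21030 and 18970 after deletion. The groups were far apart, with a log2 fold change of -2.13 (SE 0.07, edgeR adjusted p = 7.21e-25). Mbp, the myelin basic protein, was at -1.63 (SE 0.07, edgeR adjusted p = 4.05e-21). The genes that rose, Ednrb and Mtmr2, with log2 fold changes of 0.66 and 0.32, encode an endothelin receptor and a phosphoinositide phosphatase. Mtmr2 did not pass without control library 1 (0.27, adjusted p = 0.0575). Cntf was at or below 3 reads.

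Immature Schwann cells carry surface molecules and regulators that are lost as myelin forms. Of 9 such genes, 4 rose, 2 fell and 3 did not pass, with a median log2 fold change of 0.11. Mycn, among those that rose, had only 2 of 3 control libraries past the filter but 3 of 3 Rnf40 ΔSC ones. This count and median are thus shaped in part by the change itself. Ncam1, an adhesion molecule, had 313, 386 and 351 normalized counts in control libraries and 741, 845 and 775 in Rnf40 ΔSC ones. Notch1, a receptor that keeps Schwann cells immature, had 270.0, 282 and 262 against 506, 589.5 and 602. Both genes were higher in all Rnf40 ΔSC libraries, with log2 fold changes of 1.16 (SE 0.10, edgeR adjusted p = 3.85e-12) and 1.06 (SE 0.10, edgeR adjusted p = 5.44e-11). These 2 passed in all 14 fits run, whereas the others of the 9 that rose did not pass in every fit. Gfap, an intermediate filament of nonmyelinating cells, is not among the 9, as it had enough reads for the test in Rnf40 ΔSC libraries only. In the fit without a filter its log2 fold change was 2.31 (edgeR adjusted p = 0.00181), but with the filter its size depended on single libraries, with 4.08 without control library 2 and 1.55 without control library 3, where it did not pass (adjusted p = 0.0746). L1cam went the other way, at -1.87 (SE 0.14, edgeR adjusted p = 7.87e-14). Jun, the regulator of the repair state, had a log2 fold change of 0.11 (SE 0.12) that did not pass (edgeR adjusted p = 0.521) but did with library totals (0.37, adjusted p = 0.00993).

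Cartilage genes bound by Sox9, Sox5 and Sox6 were examined because these factors act together there. Of 7 such genes, 3 rose, 2 fell and 2 did not pass, with a median log2 fold change of 0.43. Col2a1 and Col11a2, among those that rose, had only 2 of 3 control libraries past the filter but 3 of 3 Rnf40 ΔSC ones. The count that rose and the median are thus shaped in part by the change itself. Of the genes that rose, only Col9a3 had all control libraries past the filter. Col9a3, a chain of type IX collagen, had 22.2, 37.0 and 37.9 normalized counts in control libraries and 74.5, 76.0 and 88.6 in Rnf40 ΔSC ones, with no overlap and a log2 fold change of 1.25 (SE 0.20, edgeR adjusted p = 6.58e-06). Hapln1, a link protein of the matrix, had 1.59, 3.27 and 3.44 against 14.1, 19.3 and 11.2 normalized counts. It is not among the 7, as it had enough reads for the test in Rnf40 ΔSC libraries only, and its log2 fold change in the fit without a filter was 2.26 (edgeR adjusted p = 0.000390). Col2a1 was at 0.83 with overlapping groups (edgeR adjusted p = 0.0491) and passed in 7 of 14 fits, with adjusted p from 0.00715 to 0.296. Matn4, a matrilin, fell by 1.07 on the log2 scale (SE 0.22, edgeR adjusted p = 0.000236) and passed in all 14. Col11a1 was the most abundant of the list and fell by 0.36 on the log2 scale (edgeR adjusted p = 0.00668), to -0.09 with library totals. Its call was lost without control library 3 (adjusted p = 0.0519) or Rnf40 ΔSC library 1 (adjusted p = 0.0596). Col9a2 had a log2 fold change of 0.43 (SE 0.19, edgeR adjusted p = 0.0868). It passed with library totals (0.69, adjusted p = 0.00375). Acan, Matn1, Matn3 and Ucma, which define cartilage, were at or below 3 reads in all libraries.

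**Figure D5:**
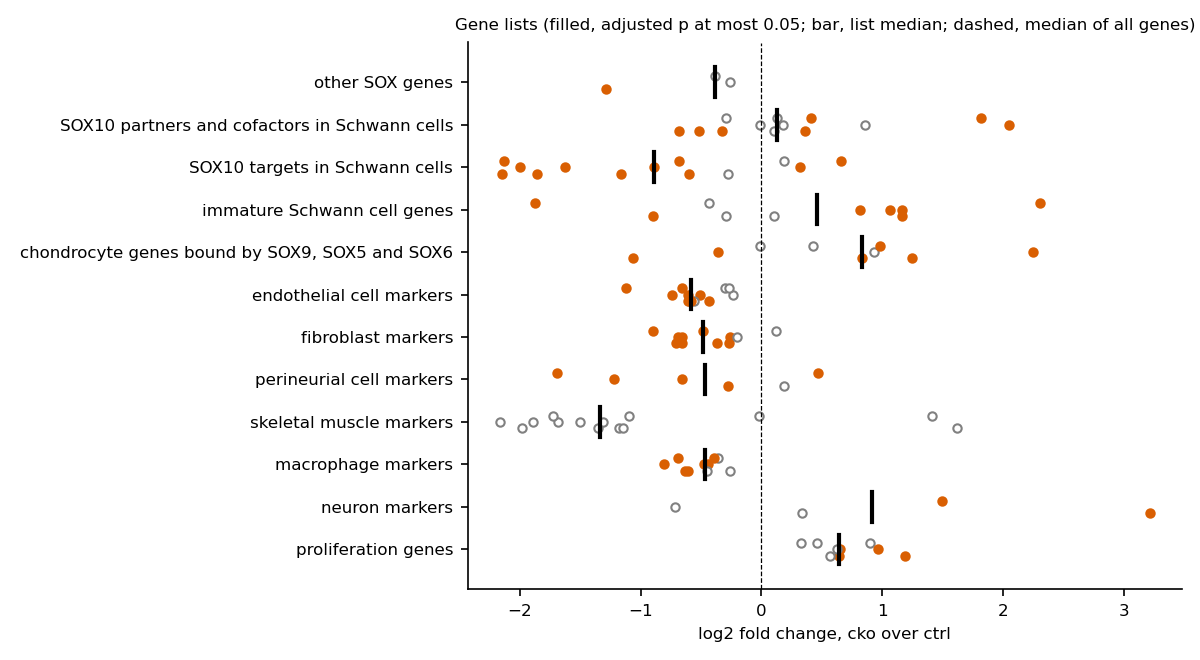
Log2 fold changes, Rnf40 ΔSC (cko) over control (ctrl), of each tested gene of 12 lists, with the list median as a bar and the median of all genes (-0.00245) as a dashed line. Filled symbols passed an adjusted p of 0.05 in edgeR. Genes with enough reads in 1 genotype only are shown and enter the bars here, among them 3 of the 4 neuron markers. Bars of lists with such genes are shaped by the change itself. Without them, medians were 0.11 for immature, 0.43 for cartilage and -0.72 for neuron genes, the last from 1 gene. The medians of immature and cartilage genes still hold genes past the filter in only 2 of 3 control libraries.

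Other cells of the nerve were followed through their markers. Of 11 fibroblast markers, 9 fell and 0 rose (median log2 fold change -0.49), with sums of 105202, 102657 and 111299 normalized counts in control libraries and 78471, 75255 and 74346 in Rnf40 ΔSC ones and with Col3a1, Col1a2 and Col1a1 as the most abundant. With library totals 6 of the list fell and 1, Lum, which had not been among the 9, rose. Pi16, a marker of universal fibroblasts, and Dpt, a matrix protein, had the largest falls, at -0.90 and -0.70 (edgeR adjusted p = 6.95e-07 and 2.2e-05). Of 6 perineurial markers tested, 4 fell and 1 rose (median -0.47). Sums over all 7 markers listed were between 2455 and 2699 in control and between 1829 and 2152 in Rnf40 ΔSC libraries. Tjp1 was the most abundant by its mean over both genotypes. In control libraries, however, Itgb4 had 813, 926 and 952 normalized counts against 759, 756 and 657 for Tjp1. The integrin Itgb4, which Schwann cells express as well, was at -1.69 (SE 0.10, edgeR adjusted p = 4.91e-16). Of 10 macrophage markers, 7 fell and 0 rose (median -0.46), or 2 with library totals and 4 in DESeq2, and sums were between 882 and 1010 in control and between 658 and 668 in Rnf40 ΔSC libraries, with Csf1r as the most abundant. Cd68 had the largest fall, at -0.81 (SE 0.22, edgeR adjusted p = 0.00402), and did not pass without control library 3 (adjusted p = 0.117). The sums of the fibroblast and macrophage lists were lower in all Rnf40 ΔSC libraries, as was Sox10. Such sums measure RNA relative to the bulk of genes and not numbers of cells. With Itgb4 left out, an alternative chosen after seeing the data, the perineurial sums were 1642, 1773 and 1651 in controls against 1865, 1595 and 1683 after deletion, so that the groups overlapped. Tjp1 rose, at 0.47 (SE 0.09, edgeR adjusted p = 0.000122).

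Skeletal muscle lies beside the nerve, and its markers differed widely between Rnf40 ΔSC libraries. Its 15 markers summed to 9220, 7028 and 5216 normalized counts in control libraries 1, 2 and 3 and to 193, 510 and 6645 in Rnf40 ΔSC libraries 1, 2 and 3. Rnf40 ΔSC library 3 was thus like the controls, and libraries 1 and 2 were low. None of 14 tested markers passed in edgeR (0 also at an unadjusted p of 0.05 and 0 in DESeq2), with Myh4, Acta1 and Atp2a1 as the most abundant, whereas 12 fell once Rnf40 ΔSC library 3 was left out. Without that library, Sox2, Sox5, Sox6 and Sox8 were still higher and Sox10 lower, so that of the 6 calls only that of Sox4 was lost. That fit sets only libraries low in muscle markers against controls, so that muscle content and genotype cannot be told apart in it.

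Of 8 proliferation genes, 4 rose, 0 fell and 4 did not pass (median log2 fold change 0.63). Aurkb, which rose, had 1 of 3 control libraries past the filter, and Birc5, which did not pass, had 2. Both had 3 of 3 Rnf40 ΔSC libraries past it, so that this count and median are shaped in part by the change itself. The antigen Mki67, the most abundant, had 90.5, 79.5 and 105 normalized counts in control libraries and 133, 116 and 179 in Rnf40 ΔSC ones, with no overlap and a log2 fold change of 0.64 (SE 0.15, edgeR adjusted p = 0.0014). Mcm2, a replication factor, was at 0.96 (SE 0.23, edgeR adjusted p = 0.000997). Of 9 neuron markers, 5 had too few reads for the test, and 3 of the other 4, Dcx and Snap25 among them, had enough in Rnf40 ΔSC libraries only. A count of those that rose would thus be shaped by the change itself and is not given. The defining markers Elavl4 and Rbfox3 were at or below 3 reads. Dcx, a microtubule protein of young neurons, had 1.59, 1.09 and 1.72 normalized counts in control libraries and 14.1, 18.1 and 12.8 in Rnf40 ΔSC ones, and Snap25, of the exocytosis machinery, had 4.76, 6.54 and 6.89 against 19.0, 15.7 and 18.4. In the fit without a filter, log2 fold changes were 3.22 (edgeR adjusted p = 6.39e-06) and 1.504 (edgeR adjusted p = 0.00413). Stmn2, the most abundant of the list by its mean over both genotypes, had 15.9, 19.6 and 22.4 normalized counts in controls against 18.2, 4.82 and 11.2 after deletion. In Rnf40 ΔSC libraries it was below Snap25. The groups of Stmn2 overlapped, and its log2 fold change of -0.72 (SE 0.37, edgeR adjusted p = 0.142) passed only without Rnf40 ΔSC library 1 (-1.19, adjusted p = 0.0432). Nefl had too few reads for the test, and its groups overlapped. The part of these cell types in the SOX results was not tested.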

How the data were processed

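The authors used TopHat and mm9 for alignment and HTSeq to count unique reads per gene. The deposited values are these counts, whole and not normalized. The submitters' processing notes list mm9 and mm10, Bowtie2 2.1.0, HTSeq and DESeq2 without a role for each. Gene annotation and strand setting of the counting are not given in the sources used here, and labels and methods name different library kits (NEB Next Ultra and a directional kit), so that overlapping genes remain uncertain. All libraries carry the same kit label. Replicates are labelled as biological, and each differed from the others of its group by more than sampling noise.

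Genotype came from the labels. For the tests, R 4.3.3 and edgeR 4.0.16 were used (filterByExpr, TMM, robust quasi-likelihood fit, genotype as the only term, Benjamini-Hochberg adjustment, threshold 0.05), a procedure tested on simulated counts. One read stood for 0.798 to 1.59 normalized counts, depending on the library, which limits genes with few reads. Ratios and shares used exact permutation tests in SciPy 1.17.1. Exon lengths and coordinates are from GENCODE vM1 (mm9, counted from 1), promoters from RefSeq (GRCm38.p6).

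Members and gene lists were chosen with earlier results of these data known. The rule for named genes took the members, other SOX genes with more than 3 reads in a library, Rnf40, Rnf20, Egr2, Pou3f1 and Pou3f2, and of each list the 3 most abundant genes, the 2 with the largest change among those that passed and defining markers at 0. Abundance was ranked by the mean over both genotypes. Sox2ot, S100b, Ednrb, Mtmr2, Lum, Nefl, Col2a1 and Matn4 were named in addition, after their values were seen. Some genes the rule took are not reported here. Alternatives were RLE scaling, library totals, DESeq2 1.42.0 with and without its fold-change prior, no filter or a mean of at least 10 counts, a block for the replicate number, libraries left out in turn, unadjusted p, stricter limits, another pseudocount and shares without a length. The perineurial sum without Itgb4, Sox1 and Sox3 without single Rnf40 ΔSC libraries and list counts without genes past the filter in 1 genotype only were added after seeing the data. The filter keeps a gene that is high in 1 genotype alone.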

Additional observations from a re-analysis of the deposited data

How the results depend on the processing

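Sox2, Sox5 and Sox8 were higher and Sox10 lower at an adjusted p of 0.05 in each of the 14 fits run, with ranges of the log2 fold change of 1.76 to 2.23, 1.17 to 1.63, 0.63 to 1.02 and -0.84 to -0.52. The number of members that rose was 3 instead of 5 in DESeq2 with or without a fold-change prior and with the stricter limits, which also left 0 that fell, and ran from 3 to 5 when single libraries were left out. Sox4 had 0.54 (adjusted p = 0.111) in DESeq2 and 0.50 (0.111) with the prior, and Sox6 had 0.91 (0.0619) and 0.77 (0.0610). With single libraries left out, Sox4 ran from 0.41 to 0.73, Sox6 from 0.58 to 1.07 and Sox9 from -0.23 to 0.21.

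With library totals, 3740 genes were higher and 886 lower in place of 1757 and 1841, and log2 fold changes were 0.16 for Sox13, 0.21 for Sox9, 0.00304 for Sox17, 0.00918 for Sox12 and -0.27 for Rnf40 (adjusted p = 0.116). By its construction this scale does not correct for the difference in composition between the genotypes. With genes past the filter in 1 genotype only kept in, 5 immature and 4 cartilage genes were higher in place of 4 and 3, with medians of 0.46 and 0.83. As such genes entered through the genotype where they are high, these counts and medians are shaped by the change itself and decide nothing. The lower counts still hold Mycn among immature genes and Col2a1 and Col11a2 among cartilage genes. With only 2 of 3 control libraries of these genes past the filter, the lower counts share this limit in part. In the lists with these genes, library totals gave 7 partners of Sox10 higher and 0 lower, 1 cartilage gene lower and 6 higher, 3 endothelial markers lower, 1 fibroblast marker higher and 6 lower, 2 macrophage markers lower and 7 proliferation genes higher. The fold of the perineurial sum went from 0.770 to 1.02 with Itgb4 left out, an alternative chosen after seeing the data. DESeq2 gave 4 macrophage markers lower, and 12 muscle markers were lower without Rnf40 ΔSC library 3. Of the list genes that passed, fewer did so in every fit that tested them, 1 of 7 macrophage, 3 of 8 endothelial, 6 of 9 fibroblast and 3 of 4 perineurial markers that fell, 0 of 3 partners of Sox10 that fell, and 3 of 4 proliferation genes that rose. The same held for 1 of 2 cartilage genes that fell and for 3 of 4 partners and 1 of 2 targets of Sox10 that rose. In the lists with Gfap and Hapln1, it held for 2 of 5 immature and 2 of 4 cartilage genes that rose. In contrast, 9 of 9 targets of Sox10 and 2 of 2 immature genes fell in every fit. Stricter limits left 424 genes higher and 574 lower.

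For named genes other than members, 624 of their values under the alternatives kept direction and side of the threshold, 35 lost the call, 12 gained it and 1 (Sox12) turned. Calls of Cldn1, Cd163, C1qb and Aurkb, which the rule also named, were lost in DESeq2 (adjusted p 0.0871, 0.0623, 0.0726 and 0.117). Ratios to Sox10 and the Sox10 share moved by less than the larger group SD under each alternative. With single libraries left out, the ratios of Sox8, Sox9, Sox11 and Sox17 moved by more than the smaller group SD. Where no cause is given, the cause was not tested.

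With the replicate number as a replicate block, 1727 genes were higher and 1837 lower, the same 6 members passed, and Sox2 had 1.97 and Sox10 -0.79. Same-numbered libraries did not deviate together (r = -0.09, -0.02 and -0.06), so that the numbers do not pair them. With single Rnf40 ΔSC libraries left out, after seeing the data, the limit for Sox1 ran from 1.33 to 3.47 and the ratio for Sox3 from 7.31 to 11.7. Depth limits Sox1, Sox3 and Sox11, which had at most 14 reads in a library.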
